A study of Homo sapiens with 6 samples.

Results

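The S100 proteins are small calcium-binding proteins, each built on a pair of EF-hand motifs. The 9 genes described here are S100A8, S100A9, S100A12, S100A4, S100A6, S100A10, S100A11, S100A13 and S100P, out of 19775 genes that the array names by a single symbol. They were chosen from the family with the difference between treated and control arrays already known, so their changes are given as descriptions and no test supports them. Every probe set annotated to only 1 of these genes was taken, which gave 13 of the 54613 probe sets of the array. MOLM-14 is an established line of human acute myeloid leukaemia that carries the MLL-AF9 rearrangement. Cells were held for 24 h either in DMSO, the solvent control, or in 10 nM cortistatin A (CA), and 3 wells of each kind went to 1 Affymetrix U133 Plus 2.0 array apiece. CA is a steroidal alkaloid. It blocks the Mediator kinases CDK8 and CDK19, and Mediator links transcription factors to RNA polymerase II. All values are log2 RMA values of single probe sets, so that a difference of 1 is a doubling. Since each probe set binds its target with its own strength, values are compared between arrays and not between genes.

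Calcium binding opens a hydrophobic cleft in most S100 dimers, through which they hold target proteins such as annexins, myosin and ezrin. S100A8, S100A9 and S100A12 are the calgranulins, made in large amounts by monocytes and neutrophils and released as alarm signals that engage TLR4 and RAGE. S100A4, S100A6, S100A10 and S100A11 are made by many cell types and act mostly on the cytoskeleton, the membrane and annexins.

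The arrays were alike, with medians of 5.59 to 5.62 and lower quartiles of 4.11 to 4.14, and correlated across probe sets at r = 0.998 within groups and at 0.996 to 0.997 between groups. RNA integrity was read from the GAPDH and ACTB controls. For GAPDH the 3' signal exceeded the 5' signal by 0.38 ± 0.02 with DMSO and by 0.48 ± 0.05 with CA (n = 3, SD; p = 0.1 in an exact 2-sided permutation test, the smallest that 3 against 3 arrays allow). For ACTB the excess was 2.27 ± 0.13 and 2.38 ± 0.07 (n = 3, SD; p = 0.3 in the same exact permutation test). The part of these shifts in the S100 values was not tested. Of the 8 measured markers of a myeloid leukaemia, 7 lay above the array median in DMSO. Among them were LYZ (13.38 ± 0.10) and FLT3 (11.69 ± 0.02), and the exception was SPI1 (5.51 ± 0.12). Probe sets differ in strength, so a signal above the median does not by itself show expression. Some markers of other cells also lay above it, such as COL1A1 of fibroblasts (7.34 ± 0.04). Of the markers of other cells, all 5 of T cells and all 5 of epithelium lay below the array median, as did 4 of 5 of mature neutrophils, 3 of 5 of fibroblasts, 2 of 3 of erythroid cells, 2 of 5 of megakaryocytes and platelets and 1 of 4 of B cells. Of the B cell markers, PAX5 stood high in DMSO (9.68 ± 0.04) and was the sole marker of those other lists that was called, at a change of 0.42. The wells are separate samples per the labels, but no label says that they came from separate cultures, so the spread may be technical. The labels name 2 RNA isolation kits without saying which sample used which, so a part of the kit could not be examined.

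After CA, S100A8 and S100A9 were higher and several broadly expressed S100 genes were lower, while S100A12 was near its DMSO level at a low signal. Of the 13 probe sets, the fit called 3 higher, those of S100A8 and S100A9, and 3 lower, those of S100A4, S100A6 and S100A11 that carried the stronger signal. A call is an adjusted p under 0.05 in limma over all probe sets, and such calls covered 3.0% of all probe sets for higher and 2.01% for lower. By gene, on the probe set of highest mean, 2 of 9 were called higher and 3 lower, against 4.31% and 2.55% of all genes. A change below 0 was seen in 7 of 9, against 51.2% of all genes. The 3 CA values lay entirely above or below the 3 DMSO values in 8 of the 13 probe sets, against 25.1% of all probe sets. The median change was -0.15 over the 13 probe sets and -0.0096 over all probe sets. In a sample of whole cells, a change in the share of cells that make a transcript and a change in the amount per cell cannot be told apart.

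**Figure D1:**
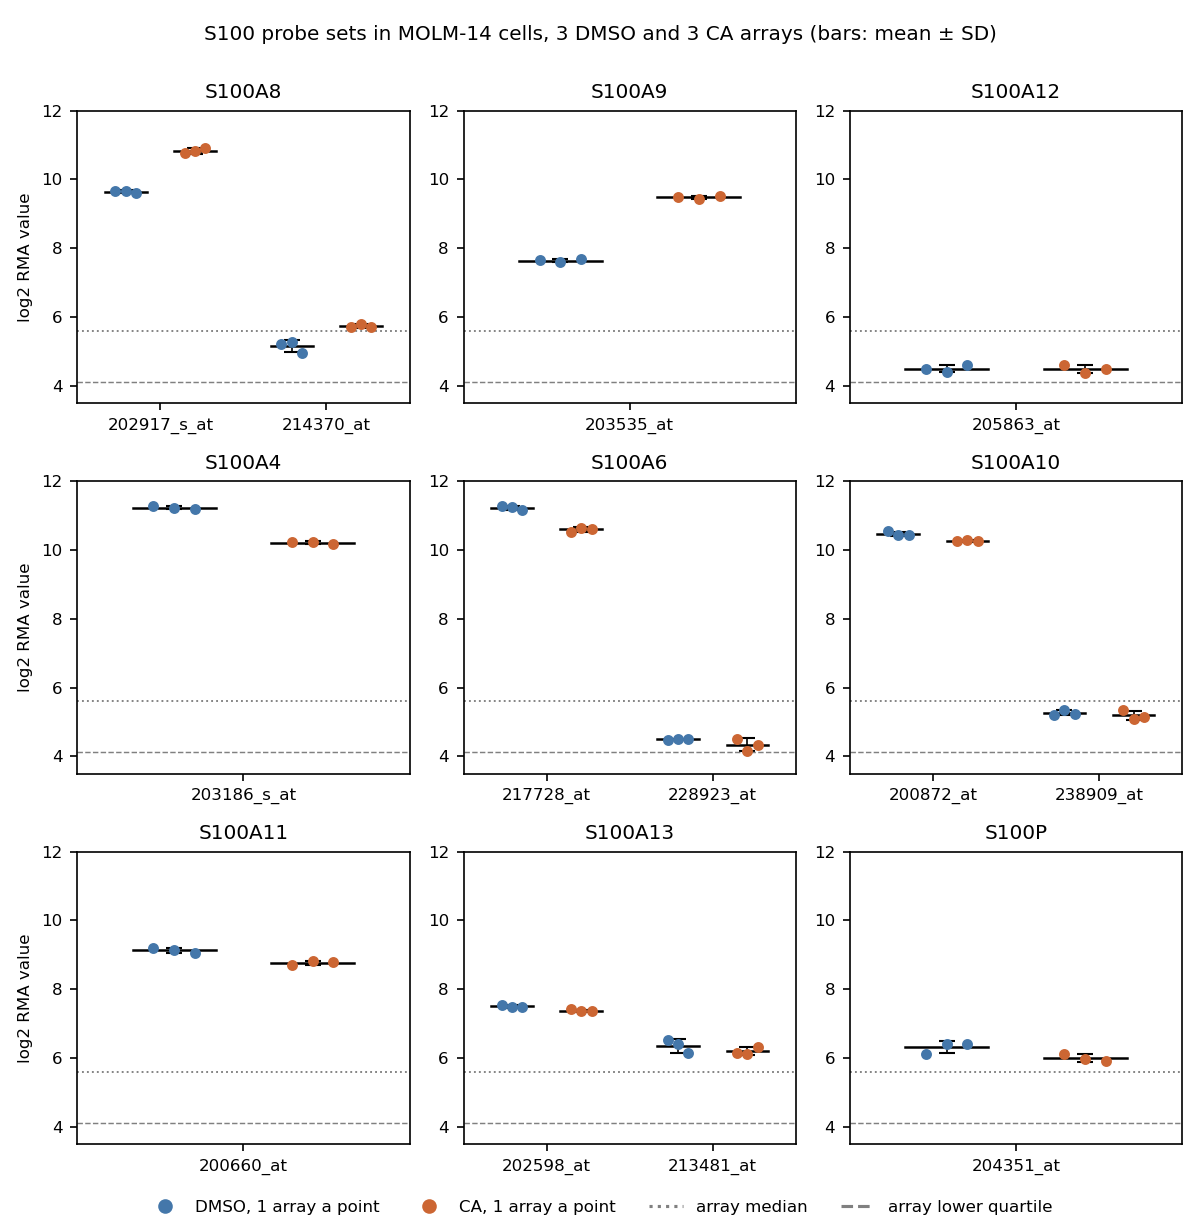
Each panel shows a gene and its probe sets, with the log2 RMA value of each array as a point, DMSO in blue and CA in orange, and the mean ± SD as bars (n = 3). The CA points of S100A9 and S100A8 lie above the DMSO points, those of S100A4, S100A6 and S100A11 lie below on the stronger probe set, and S100A12 sits near the lower quartile of the arrays in both groups.

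S100A9 and S100A8 together form calprotectin, the heterodimer that binds zinc and manganese and makes up much of the soluble protein of neutrophils. S100A9, on its only probe set, was at 7.65, 7.60 and 7.68 in DMSO and at 9.48, 9.44 and 9.53 in CA. Each CA array stood far above each DMSO array, and the arrays of a group lay close together. The change was 1.84 (SE 0.05), a 3.59-fold higher signal, and ranked 11 among the rises of 54613 probe sets. S100A8, on the stronger of its 2 probe sets, was at 9.68, 9.65 and 9.60 in DMSO and at 10.76, 10.83 and 10.93 in CA. The groups lay far apart again, with a change of 1.19 (SE 0.06), or 2.29-fold, ranking 69 among the rises. The weaker S100A8 probe set pointed the same way, from 5.23, 5.26 and 4.95 in DMSO to 5.72, 5.81 and 5.71 in CA. It gave a smaller change of 0.60 (SE 0.09) from a DMSO signal below the array median, and the call of this probe set was lost without CA replicate 1 (0.61), 2 (0.56) or 3 (0.61). The stronger probe set carries the suffix _s_at, given to sets that can match several transcripts, so S100A8 without such sets rests on the weaker value. The change averaged over both S100A8 probe sets was 0.90.

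S100A12, the third calgranulin and a ligand of RAGE, lies between S100A9 and S100A8 on chromosome 1. Its probe set was at 4.48, 4.41 and 4.62 in DMSO and at 4.61, 4.38 and 4.49 in CA. The groups overlapped, with a change of -0.01 (SE 0.08). In DMSO only 31.8% of probe sets lay below it, so a change at such a low signal may not be detectable.

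The bases just upstream of the transcription starts of S100A9 and S100A8 are shown because these neighbours moved together. They are RefSeq promoter windows of GRCh38.p14, 250 bases that end just before the start site, written 5′ to 3′ on the strand of the gene. Capitals mark matches to any of 6 short motifs searched on both strands. S100A9 is on the plus strand (chr1:153357604-153357853) and S100A8 on the minus strand (chr1:153391074-153391323). RefSeq lists 3 starts for S100A8, and the middle one is shown, whose window overlaps the other two.
S100A9: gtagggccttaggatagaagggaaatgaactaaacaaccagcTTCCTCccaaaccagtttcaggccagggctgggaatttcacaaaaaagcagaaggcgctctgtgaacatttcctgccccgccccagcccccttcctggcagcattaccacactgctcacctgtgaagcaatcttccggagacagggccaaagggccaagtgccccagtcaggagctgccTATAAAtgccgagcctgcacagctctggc
S100A8: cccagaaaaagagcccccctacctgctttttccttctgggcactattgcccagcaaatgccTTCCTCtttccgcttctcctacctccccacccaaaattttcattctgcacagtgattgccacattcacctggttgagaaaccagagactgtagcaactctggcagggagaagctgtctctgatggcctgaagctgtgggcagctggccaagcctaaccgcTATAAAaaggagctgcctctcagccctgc
Both windows hold the TATA box letters TATAAA from 29 to 24 bases before the start, found in 10.7% of the 35116 promoter windows of this length. Both also hold, on the opposite strand, GAGGAA, the core letters of ETS factors of the PU.1 type, at 208 to 203 bases before the S100A9 start and at 189 to 184 before that of S100A8. GAGGAA occurs in 23.6% of all windows, and among the 9 genes it was found in these 2 alone. The likeness in both motifs holds for the S100A8 start shown and not for its other starts. The window of the start at 153391188 held GAGGAA from 74 to 69 bases before it and no TATAAA. That of the start at 153390976 held TATAAA from 126 to 121 bases before it and no GAGGAA. The S100A12 window held TATAAA, TTGCNNAA, a C/EBP-type half-palindrome (9.05% of all windows), and TGANTCA, the AP-1 letters (6.57%).

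Among the S100 genes made by many cell types, the lower values were those of S100A4, S100A6 and S100A11. S100A4, also called metastasin, binds non-muscle myosin and favours cell movement. Its only probe set was at 11.27, 11.22 and 11.19 in DMSO and at 10.22, 10.24 and 10.17 in CA. The 6 values fell into 2 tight groups that did not overlap, with a change of -1.01 (SE 0.05), a 2.02-fold lower signal that ranked 22 among the falls. This probe set also carries the suffix _s_at, and S100A4 has no other.

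S100A6, or calcyclin, is linked to proliferation and binds CACYBP. On its stronger probe set it was at 11.28, 11.25 and 11.17 in DMSO and at 10.53, 10.64 and 10.62 in CA. Every CA value was below every DMSO value, with a change of -0.63 (SE 0.06), or 1.55-fold lower, ranking 105 among the falls. The weaker probe set was at 4.49, 4.52 and 4.51 in DMSO and at 4.52, 4.15 and 4.35 in CA, close to the lower quartile of the arrays. Its groups overlapped (-0.17, SE 0.09), and the mean of both probe sets changed by -0.40.

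S100A11, or calgizzarin, binds annexin A1. It was at 9.21, 9.13 and 9.05 in DMSO and at 8.71, 8.81 and 8.80 in CA. The groups did not overlap, with the highest CA array not far below the lowest DMSO array, and the change was -0.36 (SE 0.06), or 1.28-fold lower. The call was lost without DMSO replicate 1 (-0.32) or 2 (-0.36) and without CA replicate 1 (-0.32), 2 (-0.37) or 3 (-0.37). The gene table lists 10 pseudogenes of S100A11, whose transcripts could share its probes.

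S100A10, or p11, does not respond to calcium and forms a tetramer with annexin A2 at the membrane. On its stronger probe set it was at 10.54, 10.44 and 10.42 in DMSO and at 10.25, 10.29 and 10.26 in CA. The CA arrays were all below the DMSO arrays, by a small margin: the change was -0.20 (SE 0.05) and was not called. With an intensity trend and robust moderation it was called, which made 4 S100 probe sets called lower in place of 3. Among probe sets with a mean log2 of at least 5, the count was also 4. Its weaker probe set (-0.07, SE 0.08) overlapped between groups.

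S100A13 takes part in the release of FGF1 and interleukin 1 alpha, which carry no signal peptide. On the stronger probe set it was at 7.55, 7.47 and 7.50 in DMSO and at 7.41, 7.36 and 7.36 in CA. The groups did not overlap and the change of -0.13 (SE 0.05) was not called. The other probe set gave -0.15 (SE 0.11) with overlapping groups. S100P, an ezrin-binding member first found in placenta and encoded on chromosome 4, was at 6.12, 6.41 and 6.42 in DMSO and at 6.13, 5.96 and 5.92 in CA. DMSO replicate 1 and CA replicate 1 had nearly the same value, so that the groups overlapped, and the change of -0.32 (SE 0.10) was not called.

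The windows upstream of S100A4 and S100A6 are shown as those of the pair with the largest lower changes, in the same form as above. Both genes are on the minus strand, S100A4 at chr1:153545807-153546056 and S100A6 at chr1:153535992-153536241.
S100A4: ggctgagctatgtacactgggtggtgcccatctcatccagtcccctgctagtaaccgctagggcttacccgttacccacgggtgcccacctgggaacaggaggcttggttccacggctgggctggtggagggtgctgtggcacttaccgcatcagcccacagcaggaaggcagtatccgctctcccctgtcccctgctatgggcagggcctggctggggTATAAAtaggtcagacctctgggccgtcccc
S100A6: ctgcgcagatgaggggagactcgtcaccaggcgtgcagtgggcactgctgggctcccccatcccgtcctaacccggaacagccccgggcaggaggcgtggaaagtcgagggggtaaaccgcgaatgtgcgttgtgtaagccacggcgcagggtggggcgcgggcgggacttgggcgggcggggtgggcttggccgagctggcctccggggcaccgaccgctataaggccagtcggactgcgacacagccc
S100A4 has TATAAA from 31 to 26 bases before its start, and S100A6 has no match to any of the 6 motifs. G and C made up 62.8% of the S100A4 window and 70% of that of S100A6, against 55.6% for S100A9 and 53.2% for the S100A8 window shown. The median over all windows was 58%. RefSeq lists 13 windows for the 9 genes. TATAAA was found for 6 of the 9 genes (S100A8, S100A9, S100A12, S100A4, S100A13 and S100P), TTGCNNAA for S100A11 and S100A12, and GAAANNGAA, the core letters of interferon-response elements (6.88% of all windows), in the window of another S100A8 start. TTCNNNGAA, the STAT element letters (6.57% of all windows), was found in none. A match is a run of letters and not a shown binding site.

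**Figure D2:**
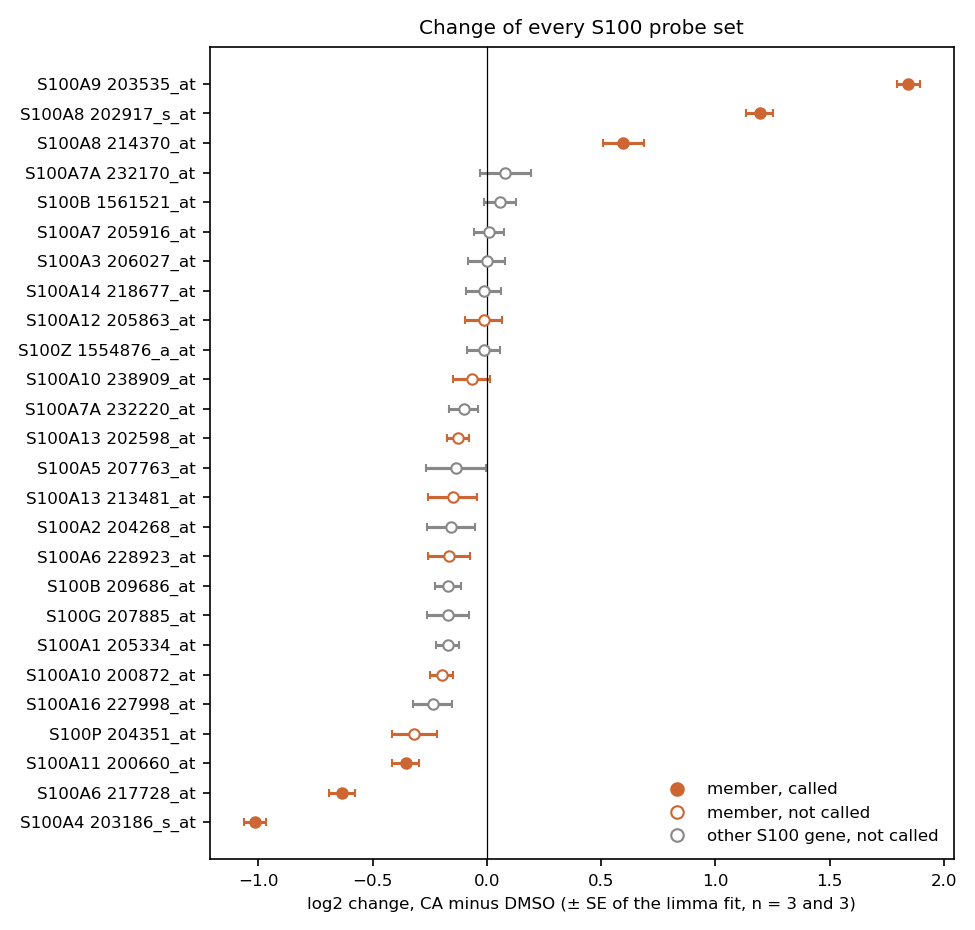
The log2 change (CA minus DMSO, ± SE of the fit, n = 3 and 3) is drawn for each of the 13 probe sets of the 9 genes in orange and for the other S100 genes in grey, with filled points for called probe sets. S100A9 (1.84) and S100A8 (1.19 and 0.60) stand to the right, S100A4 (-1.01), S100A6 (-0.63) and S100A11 (-0.36) to the left.

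The other S100 genes changed little. All 11 listed were measured, and limma called 0 of them in either direction, against 4.31% of all genes called higher and 2.55% lower. At those shares, 0 calls among 11 genes does not set them apart. At an unadjusted p under 0.05, 0 were higher and 3 lower, against 2375 higher and 1992 lower of all 19775 genes. Their changes ran from -0.24 to 0.01 with a median of -0.14, and 10 of 11 were below 0, against 51.2% of all genes. In DMSO, 7 of the 11 lay below the array median. S100A16, a broadly expressed member, was at -0.24 (SE 0.08, adjusted p = 0.195) and S100A1, known from muscle, at -0.17 (SE 0.05, adjusted p = 0.124). S100B, the glial member, was at -0.17 and S100G, the calcium carrier of the gut, at -0.17. S100A2 was at -0.16, S100A5 at -0.14, S100A7A at -0.10, S100A14 and S100Z at -0.01, S100A3 at -0.0015 and the psoriasis-associated S100A7 at 0.01. These values are of the probe set of highest mean. The weaker probe sets of S100B (0.06, SE 0.07) and S100A7A (0.08, SE 0.11) lay above 0 and were not called. Among probe sets with a mean log2 of at least 5, where fewer were tested, S100A1 was called (adjusted p = 0.0480).

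Of the 9 genes, 8 lie in the S100 and epidermal differentiation cluster of chromosome 1, which runs from S100A10 to S100A1 and holds 63 protein-coding genes in the RefSeq table. The array measured 40 of them, including all 16 S100 genes. In chromosome order, S100A9 (1.84), S100A12 (-0.01) and S100A8 (1.19) are followed by S100A7A (-0.10), S100A7 (0.01), S100A6 (-0.63), S100A5 (-0.14) and S100A4 (-1.01). Genes with called changes thus alternated with neighbours that were not called, and the direction turned within a few genes. Of these uncalled neighbours, S100A12 (4.50), S100A7 (4.24) and S100A5 (5.54) lay below the array median in DMSO and S100A7A (6.09) above it. A change may not be detectable in neighbours below the median, though the weaker S100A8 probe set was called from 5.15 in DMSO. The part of signal level in the alternation was not tested. The 24 measured genes of the cluster outside the S100 family include cornified envelope genes of skin, and 20 lay below the array median in DMSO. Limma called 0 of the 24, against 4.31% of all genes called higher and 2.55% lower, which does not set the 24 apart. Their changes ran from -0.16 to 0.25 with a median of 0.0037. An unadjusted p under 0.05 was reached by 2 higher and 1 lower, against 2375 and 1992 of all 19775 genes.

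**Figure D3:**
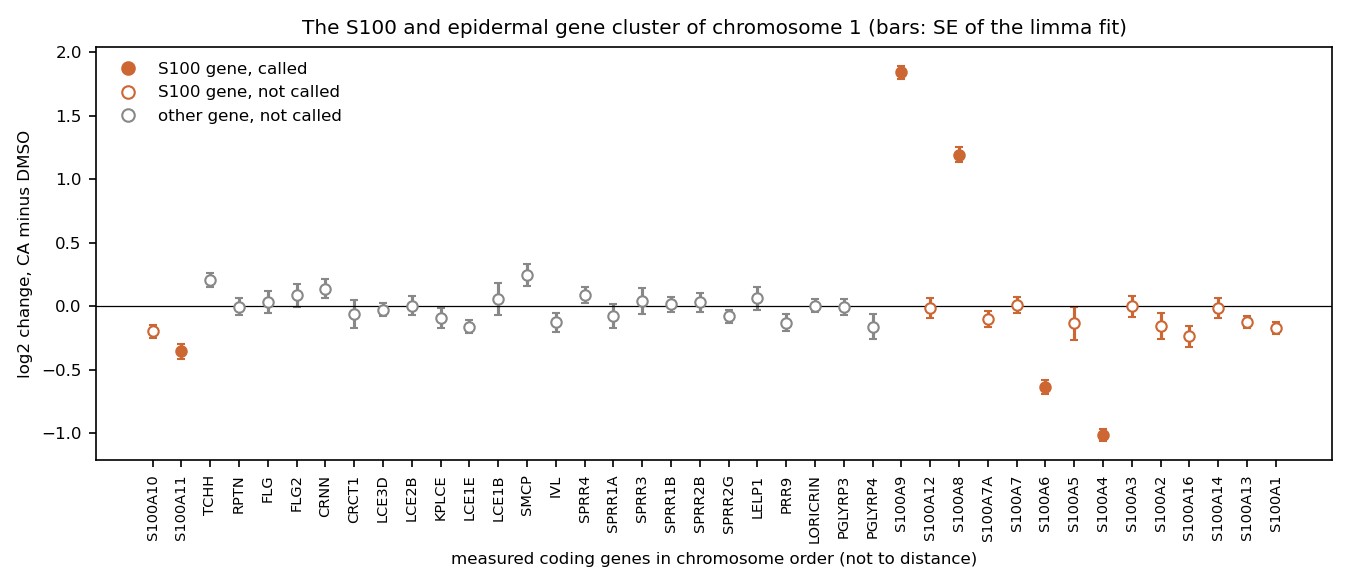
The 40 measured genes of the cluster are placed in chromosome order, not to distance, with the log2 change (CA minus DMSO) on the probe set of highest mean and the SE of the fit. S100 genes are orange and the others grey, and only 5 points are filled as called: S100A11, S100A9, S100A8, S100A6 and S100A4.

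Most genes that encode binding partners of S100 proteins were not called. Of 14 measured intracellular partners, 1 rose, 2 fell and 11 were not called (median -0.0097), where 4.31% of all 19775 genes were called higher and 2.55% lower. ANXA1, the annexin partner of S100A11, was at 8.14, 8.18 and 8.07 in DMSO and at 7.44, 7.59 and 7.30 in CA. It fell 1.61-fold (-0.69, SE 0.08, adjusted p = 0.00495), and its other probe set, at a signal below the lower quartile, was not called. ANXA2, the partner of S100A10, was at 11.59, 11.52 and 11.56 in DMSO and at 11.80, 11.82 and 11.76 in CA. It rose 1.18-fold (0.24, SE 0.05, adjusted p = 0.0344), while S100A10 was at -0.20. The call held on 3 of its 4 probe sets, all 3 with the suffix _x_at. The remaining ANXA2 probe set, at a low signal (3.29 in DMSO), was at 0.30 and not called (adjusted p = 0.314). On the probe set of highest mean the call was lost when any 1 of the 6 arrays was dropped (adjusted p of 0.0815 to 0.121 without DMSO replicate 1 to 3 or CA replicate 1 to 3). RAC2, a subunit of the phagocyte NADPH oxidase to which calprotectin delivers arachidonic acid, fell 1.27-fold (-0.34, SE 0.04, adjusted p = 0.00714). The other RAC2 probe set was also called lower, at 1.23-fold (-0.30, SE 0.06, adjusted p = 0.0396). Uncalled partners included MYH9, the myosin heavy chain bound by S100A4 (0.15, adjusted p = 0.167), AHNAK, held by S100A10 and annexin A2 (0.03), CACYBP (-0.02), EZR, bound by S100P (0.06), IQGAP1 (-0.0025) and S100PBP (-0.05). FGF1 (0.03) and IL1A (-0.10), the cargo of S100A13, lay below the array median and were not called.

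Of 10 measured receptors and their adaptors, 0 rose and 1 fell in limma, against 4.31% and 2.55% of all genes. An unadjusted p under 0.05 was reached by 2 higher and 1 lower, against 2375 and 1992 of all 19775 genes. In DMSO, 4 of the 10 lay below the array median. CD36, a scavenger receptor that also takes up S100A8 and S100A9 complexes with fatty acids, was at 6.79, 6.57 and 6.70 in DMSO and at 5.32, 5.23 and 5.03 in CA. It fell 2.81-fold (-1.49, SE 0.09, adjusted p = 3.26e-04), a call made for 3 of its 5 probe sets. TLR4 (-0.17), its partner LY96 (0.05) and AGER, which encodes RAGE (-0.08), were not called. TLR4 (5.37) and LY96 (5.13) lay below the array median in DMSO, so a change there may not be detectable. BSG, a receptor of S100A9, was at 0.07, and ALCAM at 0.19 (adjusted p = 0.0666). ALCAM was called higher with arrays centred on reference genes (adjusted p = 0.0361) and among probe sets with a mean log2 of at least 5 (0.0193). The same held with an intensity trend and robust moderation (8.69e-04).

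Among 9 measured transcription factors known to act in myeloid cells or on calgranulin genes, 1 rose and 0 fell. Of all genes, 4.31% were called higher and 2.55% lower. KLF4, a driver of monocyte differentiation, was at 7.95, 7.96 and 7.89 in DMSO and at 8.56, 8.62 and 8.61 in CA, and rose 1.59-fold (0.67, SE 0.05, adjusted p = 6.14e-04). This held on 1 of its 2 probe sets, the other being at 0.22. The C/EBP factors, known activators of the S100A8 and S100A9 genes, were not called: CEBPB was at -0.26 (adjusted p = 0.0522), CEBPD at 0.20 (adjusted p = 0.0682), CEBPA at -0.01 and CEBPE at -0.03. At an unadjusted p under 0.05, 2 of the 9 factors were higher and 1 lower, against 2375 and 1992 of all 19775 genes.

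Called genes of the monocyte lineage were lower where S100A8 and S100A9 were higher. Of 18 measured, 0 rose and 6 fell in limma, against 4.31% and 2.55% of all genes. An unadjusted p under 0.05 was reached by 1 higher and 7 lower, against 2375 and 1992 of all 19775 genes. The median change was -0.17, and 10 of the 18 lay below the array median in DMSO. Beside CD36, the largest falls among the called genes were those of the nuclear antigen MNDA (-1.09), the integrin chain ITGAM (-0.45), the growth factor receptor CSF1R (-0.39) and the protease CTSS (-0.34, called on 1 of 3 probe sets), with adjusted p up to 0.0241. The call of CSF1R was lost with any 1 array left out (adjusted p of 0.0536 to 0.0894). That of CTSS was lost without DMSO replicate 3 or CA replicate 1, 2 or 3 (0.0507 to 0.0626) and with the replicate block (0.0540). The weaker ITGAM probe set was at -0.13 and was not called (adjusted p = 0.585). CSF3R, the receptor of granulocyte colony-stimulating factor, was at -0.59 in groups that did not overlap and was not called (adjusted p = 0.0837). LYZ was at -0.05 and CD14, at a signal near the lower quartile, at 0.35 (adjusted p = 0.212). These genes were listed with earlier results of these arrays known, so the count is not independent evidence.

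Other EF-hand genes gave 0 rises and 2 falls of 26 measured in limma, against 4.31% and 2.55% of all genes, with a median of -0.03. An unadjusted p under 0.05 was reached by 2 higher and 8 lower, against 2375 and 1992 of all 19775 genes. NCALD, the neuronal calcium sensor neurocalcin, fell (-0.72, adjusted p = 0.00234) on 1 of 2 probe sets. GCA, or grancalcin, of phagocytes, fell (-0.34, adjusted p = 0.0230). Its call was lost without DMSO replicate 2 or 3 or CA replicate 1, 2 or 3 (adjusted p of 0.0682 to 0.0868). It was also lost with arrays centred on reference genes (0.0521) and with the replicate block (0.0635). LCP1 (0.01), PDCD6 (-0.0094) and SRI (0.09), sorcin, were not called.

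**Figure D4:**
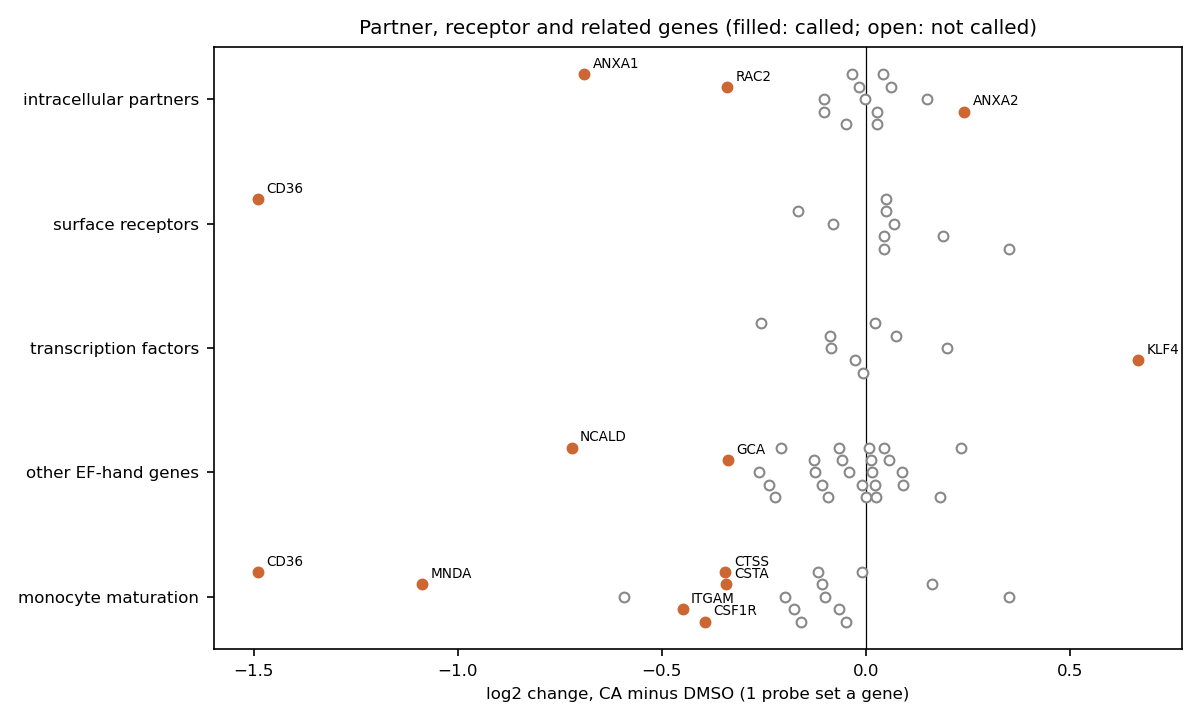
Each point is a gene on its probe set of highest mean, placed by its log2 change (CA minus DMSO) within 1 of 5 lists, filled where called. Called genes are named: KLF4 (0.67) and ANXA2 (0.24) lie to the right, and CD36 (-1.49), MNDA (-1.09), NCALD (-0.72) and ANXA1 (-0.69) farthest to the left.

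The genes closest to S100A9 in profile were found by the root mean square difference over the 6 arrays, with each gene set to 0 at its DMSO mean. They were GBP2 (0.0944), DTX4 (0.121), HES1 (0.128), CARINH (0.135) and RASD1 (0.135), whose changes were 1.82, 2.00, 1.70, 1.69 and 1.95. For S100A8 they were SLC15A4 (0.0529), SMIM14 (0.0575), HAS3 (0.0600), FLJ32255 (0.0710) and SLC2A5 (0.0823), with changes of 1.16, 1.18, 1.22, 1.27 and 1.30. Likeness over 6 arrays in 2 groups reflects mainly the size of the difference between the groups.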

How the data were processed

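The authors deposited log2 values for each probe set, and the submitters' processing notes name RMA in affy. RMA corrects background, quantile-normalizes and summarises probes, and it compresses large changes. Their versions were not given in the sources used here. Of 54675 probe sets, 62 controls were left out. The platform annotation gave 41091 a single symbol, and 41037 of these matched RefSeq genes of GRCh38.p14 by Entrez number. The 1801 with several symbols and the 11721 unnamed here named no gene.

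CA was compared with DMSO on all 6 arrays with lmFit and eBayes of limma 3.58.1 under R 4.3.3 (2-sided, no covariates, no filter), adjusted by Benjamini-Hochberg over 54613 probe sets. The script was tested on simulated data. Genes of lists were counted on the probe set of highest mean over the 6 arrays. Members, lists, motifs and the rule for named genes were chosen with earlier results of these data known. The rule named every S100 gene measured, up to 5 called genes of each other list, and the 5 nearest profiles of S100A9 and of S100A8. Other genes were named after their values were seen, to show their part as partners, receptors, factors or relatives. Genes listed but not measured by a probe set of a single symbol were not analysed here. The number of arrays limits the precision.

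Alternatives were centring on array medians or reference genes, a second quantile normalization, a mean log2 of at least 5, array weights, robust moderation with an intensity trend, a replicate block, each array left out, an adjusted p under 0.01, a minimum of 1.5-fold, the mean of a gene's probe sets, and no sets ending in _x_at or _s_at.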

Additional observations from a re-analysis of the deposited data

How the results depend on the processing

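S100A9, the stronger S100A8 probe set, S100A4 and the stronger S100A6 probe set kept direction and call in each of the 12 refits per probe set, at 1.82 to 1.89, 1.15 to 1.24, -1.03 to -0.97 and -0.67 to -0.59. The refits reuse the same 6 arrays, and these genes were chosen with the contrast known. They describe the dependence on processing and do not support the changes. Across all alternatives the count of S100 probe sets called higher was 2 or 3 and that called lower 2 to 4. The replicate numbers did not pair the samples (correlations of deviations -0.0051, 0.0315 and -0.0255). With the replicate block 2 S100 probe sets were called lower, S100A11 losing its call, and 2 partner and receptor genes were called in place of 4, ANXA2 (adjusted p = 0.119) and RAC2 (0.0521) losing theirs. At a minimum of 1.5-fold this count was also 2, and its range over all alternatives was 2 to 6. Among probe sets with a mean log2 of at least 5, 1 other S100 gene was called in place of 0. Centring on the 7 measured reference genes, added after the data were seen, shifted changes by 0.05. It moved the share of higher among all called probe sets from 59.9% (1639 higher, 1097 lower) to 76.6%, while the same counts of S100 probe sets, 3 and 3, were called. Low signal limits S100A12 and the weaker S100A6 and S100A10 probe sets.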
